A study of Mus musculus with 5 samples.

Results

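The genes described are the 5 kainate receptor subunits Grik1, Grik2, Grik3, Grik4 and Grik5 and the delta receptor subunit Grid1, taken by symbol from the table of counts. All 6 were found among its 47729 genes. The table covers the brains of 5 male C57BL/6 mice aged 30 months, numbered 7 to 11, with 1 library of total RNA prepared with an Illumina mRNA kit from each. C57BL/6 is a common inbred laboratory strain. The labels name no treatment, no genotype beyond the strain, no brain region and no younger animals. The mice form a single group, so the comparisons are between genes and between mice, and effects of age were not analysed here.

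Kainate receptors are tetrameric ion channels opened by glutamate, the main excitatory transmitter of the brain. Grik1, Grik2 and Grik3 encode the low-affinity subunits GluK1, GluK2 and GluK3, which can form channels by themselves, whereas Grik4 and Grik5 encode the high-affinity subunits GluK4 and GluK5, which need a low-affinity partner. At synapses such as those of hippocampal mossy fibres these receptors carry slow currents and tune transmitter release. The delta subunit GluD1, encoded by Grid1, resembles the others in sequence but is known mainly as a synapse organiser that binds cerebellins, which in turn bind presynaptic neurexins.

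The members share coding sequence, and the third codon position, also called the wobble position, is where they differ most. The stretch below encodes part of the third membrane segment and the residues after it, a conserved region of the channel. It is shown because it holds both the family resemblance and the differences in base composition. It spans 84 bases, or 28 codons, of the longest coding transcript of each gene in GENCODE M21 on GRCm38. The sequences are written 5′ to 3′ on the coding strand, and capitals mark each G or C at a wobble position.
Grik1: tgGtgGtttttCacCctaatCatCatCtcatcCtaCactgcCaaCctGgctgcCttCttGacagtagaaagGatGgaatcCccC
Grik2: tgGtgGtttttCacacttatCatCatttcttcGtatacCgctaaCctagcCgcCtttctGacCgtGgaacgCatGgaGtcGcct
Grik3: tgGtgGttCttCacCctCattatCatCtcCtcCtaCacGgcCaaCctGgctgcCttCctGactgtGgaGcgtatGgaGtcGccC
Grik4: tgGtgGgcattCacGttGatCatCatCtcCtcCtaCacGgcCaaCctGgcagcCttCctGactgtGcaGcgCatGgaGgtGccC
Grik5: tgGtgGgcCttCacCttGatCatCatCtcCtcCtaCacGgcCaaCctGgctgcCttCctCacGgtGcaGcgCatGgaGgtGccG
Grid1: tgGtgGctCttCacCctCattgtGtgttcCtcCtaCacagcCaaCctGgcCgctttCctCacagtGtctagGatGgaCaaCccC

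The number of wobble positions holding G or C was 19 of 28 in Grik1, 17 in Grik2, 24 in Grik3, 25 in Grik4, 27 in Grik5 and 22 in Grid1. Grik4 and Grik5, the high-affinity pair, were identical at 78 of 84 bases, and all 6 differences fell at wobble positions. Grik2 and Grik3 were identical at 67 bases, again with all 17 differences at wobble positions. The least alike were Grik2 and Grid1, with 55 identical bases. Over the whole coding sequence, G or C made up 49.0% of wobble positions in Grik2, 56.4% in Grik1, 68.7% in Grid1, 70.6% in Grik4, 76.1% in Grik3 and 80.4% in Grik5. The GC content of each gene's longest transcript put the genes in the same order, at 37.9% for Grik2, 47.9% for Grik1, 49.9% for Grid1, 52.2% for Grik4, 54.2% for Grik3 and 61.7% for Grik5.

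The stretches lie on separate chromosomes, in the genes' coding exons. That of Grik1 is at chr16:87935982-87936065 on the minus strand, within a gene spanning chr16:87895900-88290265. That of Grik2 is at chr10:49240663-49240746 on the minus strand, within chr10:49094833-49788766. That of Grik3 is at chr4:125694012-125694095 on the plus strand, within chr4:125490700-125714173. Both high-affinity genes have 1 intron inside the stretch. In Grik4 the stretch with its intron runs over chr9:42543842-42547568 on the minus strand, within chr9:42518135-42944493. In Grik5 the stretch with its intron runs over chr7:25015892-25022442 on the minus strand, within chr7:25009849-25072346. That of Grid1 is at chr14:35452311-35452394 on the plus strand, within chr14:34820108-35583379. Grik5 is by far the most compact gene, at 62.5 kb, against 223 kb for Grik3, 394 kb for Grik1, 426 kb for Grik4, 694 kb for Grik2 and 763 kb for Grid1.

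The libraries held between 15392006 and 18723390 counts, the most in mouse 11. Genes with a count numbered between 22686, in mouse 11, and 24708, in mouse 7. Mouse 11 also stood apart from the other mice in base composition. Across 16264 genes, the deviation of a gene's log2 CPM (counts scaled to the library total, after TMM scaling) from its mean over mice had a correlation with the GC content of its longest transcript of r = 0.64 in mouse 11. In mice 7, 8, 9 and 10 this was r = -0.41, -0.30, -0.27 and -0.0033. These values describe genes within a library, share its depth and carry no test. The deviations of a gene sum to 0 over the mice, so the 5 correlations are not independent of each other. The listed marker genes of neurons, glia and endothelium each had a count in at least 1 library, none being at 0 in all 5 mice. The same was true of the markers of other organs, so this says little about which cells were present. The 6 cerebellar markers, which include the granule cell gene Gabra6 and the Purkinje cell gene Pcp2, summed to between 2.08 RPKM in mouse 11 and 24.3 RPKM in mouse 10 (RPKM, counts scaled to gene length and to the library total). Library 10 thus had the highest level of these markers, and no other library exceeded 8.34 RPKM.

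Every member was expressed in every mouse, and Grik5 stood highest. The lowest count of any member in any library was 260, for Grik1 in mouse 10. There it stood at 16.2 CPM, with a 95% Wilson interval of 14.4 to 18.3, so depth did not limit detection. Levels are given in RPKM, which allows genes to be compared, recomputed from the counts with each library's own total. In RNA from brain tissue, fewer cells of a type and less RNA per cell cannot be told apart. A level is an average over all the regions and cells sampled, and the labels do not say which regions these were.

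Among the low-affinity subunits, Grik3 was the highest. Grik3, encoding GluK3, a subunit of low glutamate sensitivity, was at 14.2, 14.4, 15.4, 15.3 and 17.3 RPKM in mice 7 to 11, a mean of 15.3 ± 1.23 (SD, n = 5). Grik2, encoding GluK2, the principal subunit of hippocampal mossy fibre receptors, was at 12.6, 11.4, 11.3, 10.9 and 6.95 RPKM, a mean of 10.6 ± 2.15 (SD, n = 5). Mice 7 to 10 lay close together for Grik2, while mouse 11 lay well below them. Grik1, encoding GluK1, known from interneurons and sensory neurons, was at 6.36, 5.59, 6.82, 5.17 and 5.29 RPKM, a mean of 5.84 ± 0.713 (SD, n = 5). Here mouse 9 was the highest and mouse 10 the lowest, and mouse 11 was within the range of the others.

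The high-affinity subunits differed several-fold from each other. Grik5, encoding GluK5, a partner found in many kainate receptors of the forebrain, was at 29.9, 25.3, 29.2, 30.9 and 52.6 RPKM, a mean of 33.6 ± 10.9 (SD, n = 5). Mouse 11 lay far above the other mice, which did not overlap it. Its 5093 counts of Grik5 amounted to 272 CPM (95% Wilson interval 265 to 279.6), against 131 to 159.9 CPM in mice 7 to 10. Grik4, encoding GluK4, which is enriched in hippocampal CA3 and the dentate gyrus, was at 5.88, 5.95, 6.41, 5.82 and 6.68 RPKM, a mean of 6.15 ± 0.379 (SD, n = 5). It was the steadiest member in relative terms. Grid1, encoding the delta subunit GluD1 of forebrain and cerebellar synapses, was at 14.3, 14.4, 15.99, 16.01 and 16.8 RPKM, a mean of 15.5 ± 1.09 (SD, n = 5). Mice 7 and 8 were the lowest for Grid1 and mouse 11 the highest, with small steps between neighbours. Without mouse 11, Grik5 averaged 28.8 RPKM and Grik2 11.6 RPKM, which leaves the order of the means for these genes as it was.

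**Figure D1:**
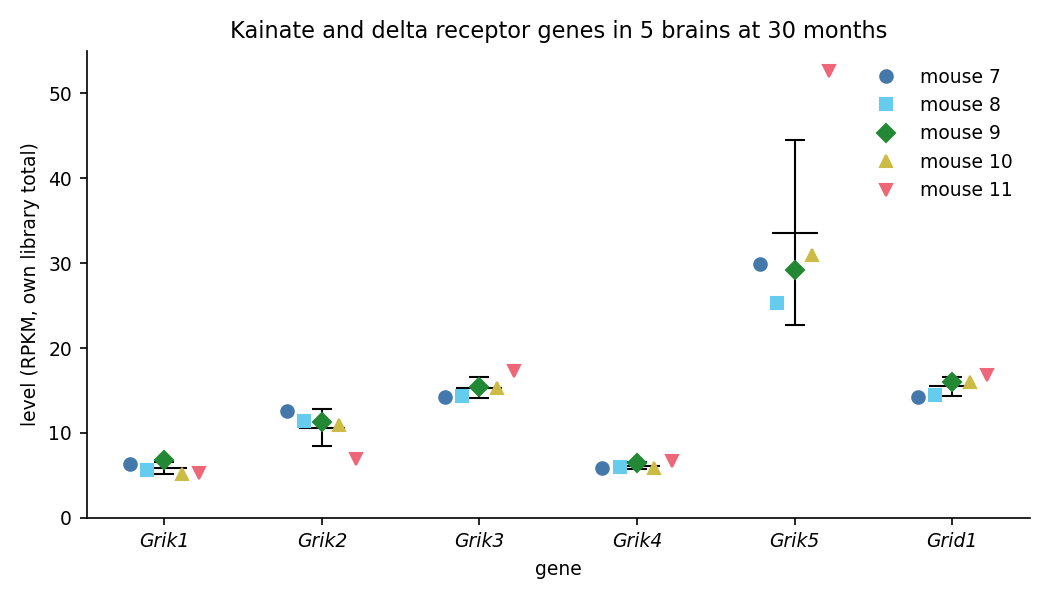
Level of each gene in RPKM (vertical axis, linear from 0), recomputed with each library's own total; each symbol is 1 mouse, and bars give the mean and SD over 5 mice. Grik5 is the highest gene in every mouse and reaches 52.6 RPKM in mouse 11, whereas Grik2 falls to 6.95 RPKM there, against 10.9 to 12.6 RPKM in mice 7 to 10.

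The order of mean levels ran Grik5, Grid1, Grik3, Grik2, Grik4, Grik1. By mean RPKM among all genes of the table, they ranked 1450, 3429, 3478, 4764, 7022 and 7250 in that order. Of the 15 pairs of members, 13 had the same order in all 5 mice, each with a two-sided exact sign-flip permutation p of 0.063 (0.0721 after Benjamini-Hochberg adjustment over the 15 pairs). That is the smallest p this test can give with 5 mice, so no pair could pass 0.05. Ratios were taken as log2 differences of RPKM with a pseudocount of 0.1.

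Grik5 exceeded Grid1, its nearest neighbour, by 1.06 ± 0.34 on the log2 scale (SD, n = 5). It exceeded Grik2 by 1.63 ± 0.72, with mice ranging between 1.14 and 2.90, and the 2.90 was mouse 11. Without that mouse the mean was 1.31. In 2 pairs of neighbours the difference was within its spread over mice. Grid1 over Grik3 was 0.02 ± 0.04 and was positive in 4 of 5 mice (exact permutation p = 0.3125, adjusted 0.335), mouse 11 being the exception. Grik4 over Grik1 was 0.08 ± 0.18 and was positive in 3 of 5 mice (exact permutation p = 0.4375, adjusted 0.4375). Grik3 over Grik2 was 0.55 ± 0.44 and positive in all 5 mice. Grik2 over Grik4 was 0.75 ± 0.40 and positive in all 5 mice, yet only 0.06 in mouse 11.

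The gaps between genes at the low end rest on the gene length used, while the order of the means was the same with either length. The lengths implied by the authors' deposited counts and RPKM were 3137 bases for Grik1 and 8272 for Grik2, against 6721 and 13246 bases for all their exons in GENCODE M21. Grik3, Grik4 and Grik5 had the same length in both, 8973, 5962 and 5168 bases, and Grid1 had 6094 against 5962 bases. With the M21 lengths Grik1 averaged 2.73 ± 0.333 RPKM and Grik2 6.64 ± 1.34 RPKM (SD, n = 5). Grik4 over Grik1 then came to 1.15 on the log2 scale and Grik2 over Grik4 to 0.08. Which isoforms of Grik1 and Grik2 were present was not measured.

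The kainate receptor mix was led by Grik5 in every brain. Grik5 supplied 43.4%, 40.4%, 42.2%, 45.4% and 59.2% of the summed RPKM of the 5 kainate genes in mice 7 to 11, a mean of 46.1% ± 7.55 (SD, n = 5). Grik2 supplied 18.3%, 18.2%, 16.4%, 16.04% and 7.82%, a mean of 15.3% ± 4.32. The opposite positions of mouse 11 for Grik5 and Grik2 can be seen in these shares, which must sum to 100% and so are not independent. Grik3 averaged 21.5% ± 1.48, Grik4 8.68% ± 0.779 and Grik1 8.31% ± 1.56, and each of these was lowest in mouse 11. These are shares of transcripts per unit length, not of assembled receptors.

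**Figure D2:**
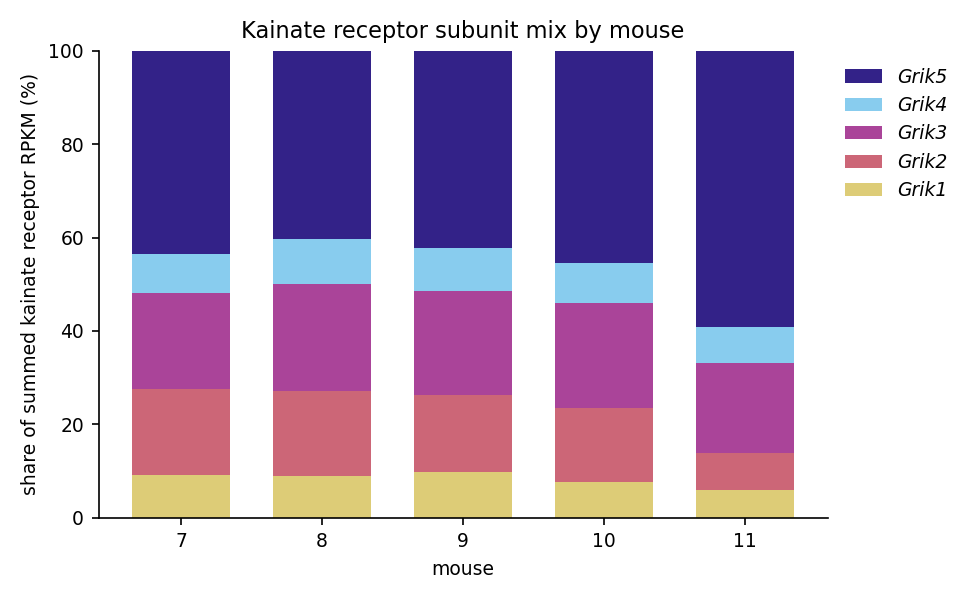
Share of each kainate receptor gene in the summed RPKM of the 5 genes (vertical axis, percent), 1 bar for each mouse. Grik5 takes between 40.4% and 45.4% in mice 7 to 10 and 59.2% in mouse 11, and the Grik2 segment narrows to 7.82% there.

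Grik4 and Grik5 together, the high-affinity subunits, summed to 39.7 ± 11.2 RPKM, and Grik1 to Grik3, the low-affinity subunits, to 31.8 ± 1.60 RPKM (SD, n = 5). The log2 ratio of the high-affinity to the low-affinity sum was 0.11, -0.01, 0.09, 0.23 and 1.004 in mice 7 to 11. The sums were thus close to equal in 4 mice and about 1 doubling apart in mouse 11. The mean ratio of 0.28 ± 0.41 had an exact permutation p of 0.125, also after adjustment over 4 class ratios. Without mouse 11 it was 0.10, and with the M21 exon lengths it was 0.65.

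Variation between mice was small for 4 members and larger for Grik2 and Grik5. The SD of log2 CPM over the 5 mice was 0.12 for Grik4, 0.13 for Grid1, 0.15 for Grik3 and 0.17 for Grik1, all below the median of 0.30 over the 16318 genes tested. It was 0.30 for Grik2 and 0.44 for Grik5, and 73.4% of genes had a smaller SD than Grik5. With edgeR's quasi-likelihood dispersions and Benjamini-Hochberg adjustment over all genes tested, 0 of 6 members were called variable between mice at 0.05, beside 0% of the 16318 genes. The 6 cerebellar markers also had 0 called, with a median SD of 2.13 and 5 at an unadjusted edgeR p under 0.05. A count of 0 called therefore does not show that a gene was steady. At an unadjusted p under 0.05 there were 786 of the 16318 genes tested, a share close to 0.05 itself. Of the members 1 was among them, Grik5 (edgeR unadjusted p = 0.0485, adjusted p = 0.981). The adjusted p of the other members lay between 0.984 for Grik2 and 0.999 for Grik4. DESeq2 marked 49 of the 16318 genes (0.3%) as dispersion outliers, of which 0 were members. At so low a share, 0 of 6 says little about the members. The unadjusted edgeR p of Grik5 was 0.483 without mouse 11, 0.0197 without mouse 7, and between 0.0544 and 0.0938 without mouse 8, 9 or 10. It was 0.0568 with DESeq2's size factors, 0.0665 with total counts, 0.0637 with a mean count of at least 50 and 0.0109 without the count filter.

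The members' positions in mouse 11 followed the GC content of their transcripts. Relative to each gene's mean, log2 CPM in mouse 11 was -0.52 for Grik2, -0.07 for Grik1, 0.18 for Grid1, 0.18 for Grik4, 0.24 for Grik3 and 0.76 for Grik5. This is the order of their GC content, from the lowest to the highest, and also of G or C at wobble positions over the whole coding sequence. In the printed stretches alone, Grik4 has 1 more such base than Grik3, so their order there is the other way round. Genes in general did the same. With the 16264 genes split by GC content into 5 bins of near-equal size, the median deviation in mouse 11 was -0.42, -0.25, -0.01, 0.23 and 0.50 from the lowest bin to the highest. Grik2 lies in the lowest bin, Grik1 and Grid1 in the middle one, Grik3 and Grik4 in the next and Grik5 in the highest. Mouse 7 showed the reverse slope, with a median of 0.34 in the lowest bin and -0.13 in the highest. Its Grik2 and Grik5 deviated by 0.25 and -0.14. The deviations of a gene sum to 0 over the 5 mice, so those of mouse 7 are not independent of those of mouse 11. In the highest bin the medians of mice 8, 9 and 10 were negative too, at -0.14, -0.17 and -0.04.

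**Figure D3:**
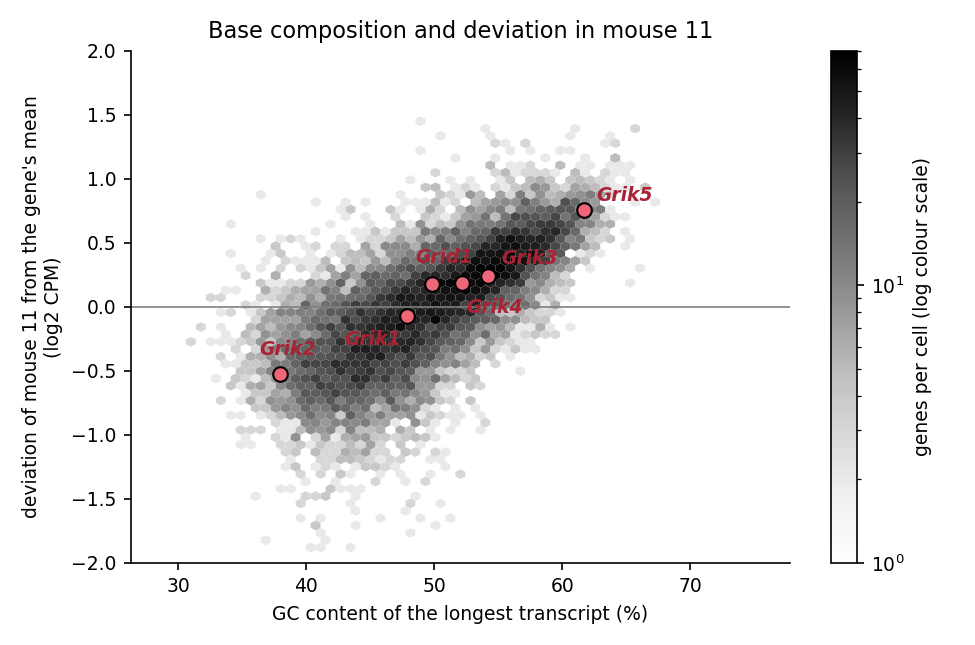
Deviation of mouse 11 from each gene's mean in log2 CPM (vertical axis) against the GC content of its longest transcript (horizontal axis, percent); the shade of each hexagon gives its number of genes on a log scale, and red points are the 6 members. Of 16264 genes, 52 lie beyond the axis limit of 2 and are not drawn; Grik2 at 37.9% GC and Grik5 at 61.7% GC sit at opposite ends, both within the cloud of other genes.

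When each library's trend with GC content and length was removed, an alternative chosen after the data were seen, the deviations in mouse 11 shrank. They were -0.05 for Grik2, 0.09 for Grik5, 0.05 for Grik1, 0.04 for Grik3, 0.07 for Grik4 and 0.21 for Grid1. The trend itself came to 0.67 for Grik5 and -0.47 for Grik2 in mouse 11. Grid1 is the exception, for its trend in mouse 11 was -0.03 and its deviation remained. The SD of log2 CPM went down to 0.12 for Grik5, 0.13 for Grik2, 0.08 for Grik3 and 0.08 for Grik4. It stayed at 0.17 for Grik1 and was 0.14 for Grid1, beside a median of 0.23 over all genes. In this fit too, edgeR called 0 members and 0% of 16264 genes, and the unadjusted p of Grik5 was 0.643. In mouse 7 the deviation of Grik2 changed sign, to -0.20. A difference in biology that moved with GC content across genes cannot be told apart from a difference in library composition here.

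**Figure D4:**
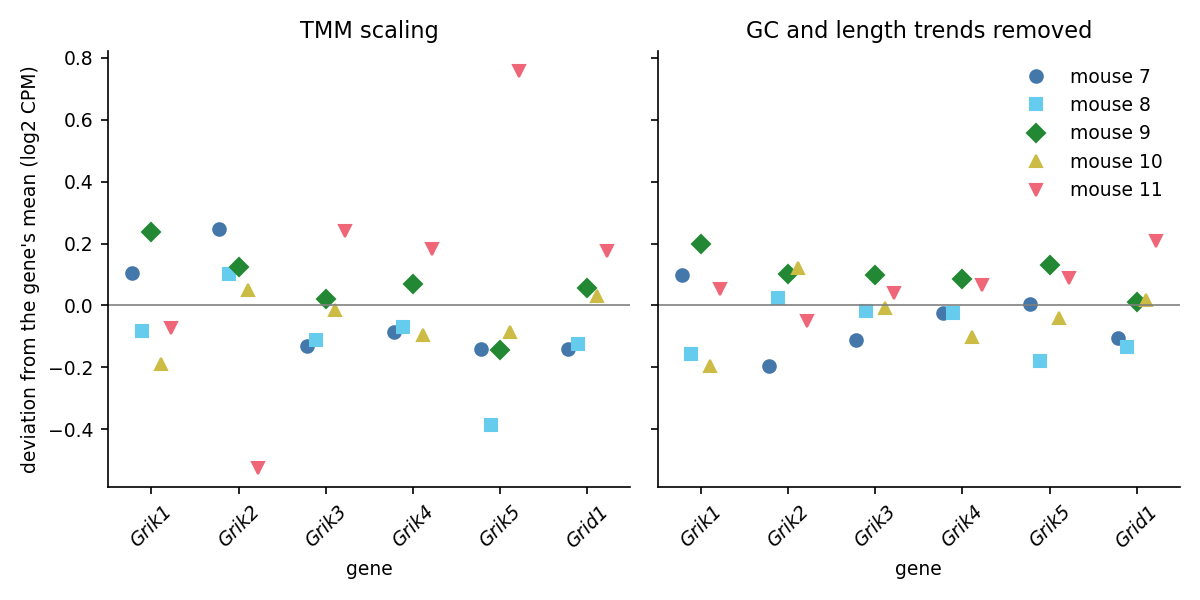
Deviation of each mouse from the gene's mean in log2 CPM (vertical axis), with TMM scaling on the left and with each library's GC and length trends removed on the right; each symbol is 1 mouse. On the left Grik5 in mouse 11 is at 0.76 and Grik2 in mouse 11 at -0.52; on the right they are at 0.09 and -0.05.

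The mix was also steadier with the trends removed. Grik5 then made up 47.4% of the kainate sum in mouse 11, with an SD over mice of 1.65 percentage points, and Grik2 made up 13.8%. The log2 ratio of high-affinity to low-affinity sums became 0.29 ± 0.09 and was positive in 5 of 5 mice, with 0.36 in mouse 11 (exact permutation p = 0.063, the smallest possible). Trend removal holds this mean nearly fixed by construction. Only mouse 8 changed sign, at -0.01 as measured and 0.16 with the trends removed.

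Set beside the other glutamate-gated channels, the kainate genes formed the smallest of the 3 class sums in all 5 mice. The 5 kainate genes summed to 68.9, 62.6, 69.1, 68.2 and 88.8 RPKM in mice 7 to 11, a mean of 71.5 ± 10.05. The 4 AMPA receptor genes, which carry fast excitatory currents, summed to 153 ± 28.0 RPKM, and the 7 NMDA receptor genes, the calcium-permeable coincidence detectors, to 86.7 ± 2.85 RPKM (SD, n = 5). The log2 ratio of the kainate to the AMPA sum was -1.49, -1.29, -1.19, -1.06 and -0.39, a mean of -1.09 ± 0.42. That of the kainate to the NMDA sum was -0.37, -0.42, -0.35, -0.29 and -0.0033, a mean of -0.29 ± 0.16. Both ratios were negative in 5 of 5 mice, each with an exact permutation p of 0.063 (adjusted 0.0833 over 4 ratios), the smallest this test allows. Mouse 11 was nearest to equality in both, with a kainate sum of 88.8 RPKM beside an NMDA sum of 89.0 RPKM. Its AMPA sum was the lowest, at 116 RPKM, against 143 to 194 RPKM in mice 7 to 10, so both sides of that ratio moved. Without mouse 11 the mean log2 ratio was -1.26 to AMPA and -0.36 to NMDA.

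With the trends removed, the kainate sum averaged 70.2 ± 3.34 RPKM, its ratio to AMPA -1.09 ± 0.11 and its ratio to NMDA -0.28 ± 0.06 (log2, SD, n = 5). The removed trend averages to about 0 over the mice for each gene, so the mean ratios are held nearly fixed by construction. The spread of both ratios narrowed, while the SD of the NMDA sum itself widened to 4.55 RPKM, against 2.85 RPKM as measured. Within the other classes, Gria1 led the AMPA genes at 87.6 ± 7.20 RPKM, followed by Gria2 at 32.6 ± 12.6, Gria4 at 17.0 ± 4.90 and Gria3 at 15.7 ± 6.39 RPKM. Grin1, the obligatory NMDA subunit, was the highest of its class at 27.3 ± 6.59 RPKM, and Grin3b the lowest at 0.118 ± 0.0650 RPKM. The mean of Grik5, 33.6 RPKM, lay near those of Gria2 and Grin1, though these pairs were not tested. Neither class had a gene called variable (edgeR, beside 0% of all genes), with 4 of 4 AMPA and 6 of 7 NMDA genes tested. At an unadjusted edgeR p under 0.05 there were 2 AMPA genes and 0 NMDA genes, beside 786 of all 16318 genes tested.

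**Figure D5:**
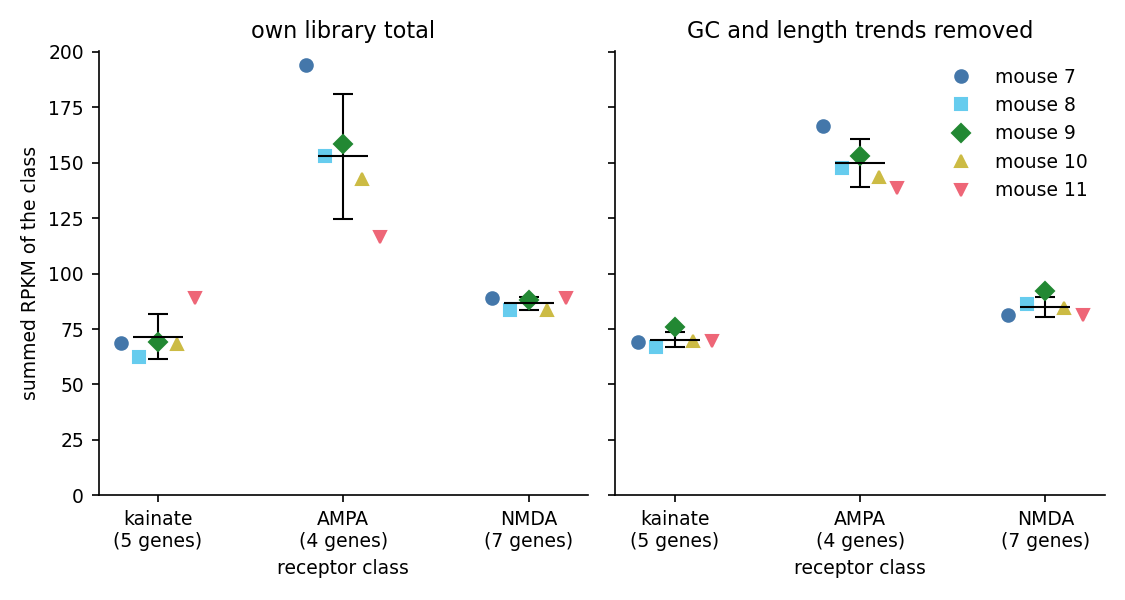
Summed RPKM of the 5 kainate, 4 AMPA and 7 NMDA receptor genes (vertical axis, linear from 0), as measured on the left and with each library's GC and length trends removed on the right; symbols are mice, and bars give the mean and SD over 5 mice. The kainate sum of 88.8 RPKM in mouse 11 on the left comes to 69.7 RPKM on the right, within the range of the other mice.

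Neto1 and Neto2 encode auxiliary subunits that slow the kinetics of kainate receptors and take part in their synaptic delivery. Neto1 was at 23.97, 20.9, 25.04, 22.1 and 19.3 RPKM, a mean of 22.3 ± 2.31 (SD, n = 5). Neto2 was at 20.9, 15.7, 15.5, 15.1 and 10.3 RPKM, a mean of 15.5 ± 3.77. Both were lowest in mouse 11, and both are poor in GC, at 39.6% and 36.5%. With the trends removed Neto1 was instead highest in mouse 11, its deviation in log2 CPM being 0.25 there, against -0.14 as measured, while that of Neto2 was -0.05, against -0.50 as measured. Neto1 exceeded Neto2 by 0.55 ± 0.27 on the log2 scale in 5 of 5 mice (exact permutation p = 0.063, the smallest possible, adjusted 0.0833). This direction held only for the implied gene lengths: with the M21 exon lengths the ratio was -0.56. Without mouse 11 it was 0.46.

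Proteins that anchor or move kainate receptors were covered by a list of 10 genes, of which 9 were matched and tested and 0 were called variable (edgeR, beside 0% of all genes). Dlg4, encoding the scaffold PSD-95, was the highest at 131 ± 25.4 RPKM, and Grip1, encoding a PDZ adaptor, the lowest at 2.64 ± 0.491 RPKM (SD, n = 5). Of the 9, mouse 11 was the highest library for 4 and the lowest for 5. Their median SD of log2 CPM was 0.27, close to the 0.30 of all genes.

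The presynaptic partners of delta receptors were all detected. Cerebellins and neurexins made up a list of 6 genes, with 6 tested and 0 called (edgeR, beside 0% of all genes). Their median SD of log2 CPM was 0.32, beside 0.30 over all genes. Nrxn3, encoding a neurexin, was the highest at 22.3 ± 1.80 RPKM, and Nrxn2 the lowest at 4.52 ± 1.18 RPKM. Cbln1, the cerebellin abundant in cerebellar granule cells, was at 9.45, 7.54, 5.52, 14.5 and 10.3 RPKM in mice 7 to 11. It was highest in mouse 10, the library with the most cerebellar marker RNA. Its next highest value was in mouse 11, the library with the least. Cbln1 is named here after its values were seen. Grid1 itself did not stand out in mouse 10, at 16.01 RPKM, close to its 15.99 RPKM in mouse 9.

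Adar and Adarb1, which encode RNA-editing enzymes, varied little between mice. Editing by ADAR2, the product of Adarb1, changes a residue in the pore of GluK1 and GluK2. Adarb1 was at 27.5 ± 1.04 RPKM, Adar at 24.1 ± 1.18 RPKM and Adarb2, which has no known editing activity, at 2.48 ± 0.573 RPKM (SD, n = 5). The SD of log2 CPM was 0.08 for Adarb1, 0.09 for Adar and 0.30 for Adarb2, beside a median of 0.30 over all genes. Of the 3, 0 were called (edgeR, beside 0% of all genes). Editing itself was not analysed here.

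Cell markers were also unevenly spread between mice, and the lists were not uniform within themselves. The 5 excitatory neuron markers, among them the vesicular glutamate transporter Slc17a7, summed to 627, 637, 753, 729.8 and 1018 RPKM in mice 7 to 11. In mouse 11, 3 of the 5 were at their highest and 1 at its lowest, and their median deviation in log2 CPM was 0.36, or 0.27 with the trends removed. The 8 inhibitory neuron markers summed to 399, 477, 434, 448 and 593 RPKM, with 5 highest and 2 lowest in mouse 11 and a median deviation of 0.32, or 0.09 with the trends removed. Both sums were thus highest in mouse 11, as was Grik5. So were the sums of the oligodendrocyte precursor, microglia, endothelial, cortical, striatal, thalamic and hippocampal markers. The general neuron and cerebellar sums were lowest there. The 6 general neuron markers summed to 835, 759.7, 781, 745 and 688 RPKM, but 3 were highest and 3 lowest in mouse 11, and their median deviation of -0.12 became 0.13 with the trends removed. The 5 oligodendrocyte precursor markers summed to between 56.2 and 67.2 RPKM in mice 7 to 10 and to 100.8 RPKM in mouse 11. Of these, 3 were highest and 2 lowest in mouse 11, and their median deviation of 0.67 shrank to 0.0049 with the trends removed. Astrocyte markers lay between 294 and 364 RPKM, oligodendrocyte markers between 621 and 864 RPKM and microglia markers between 221 and 303 RPKM. Striatal markers ranged between 195 and 308 RPKM, with a median deviation in mouse 11 of 0.39, or 0.09 with the trends removed. Hippocampal markers summed to between 58.4 and 77.8 RPKM, and although the sum was highest in mouse 11, 5 of the 7 genes were lowest there, with a median deviation of -0.26 (-0.27 with the trends removed). Endothelial markers summed to between 43.1 and 65.9 RPKM, and of the 5 genes 2 were highest and 2 lowest in mouse 11. Cortical markers summed to between 56.9 and 64.1 RPKM and thalamic markers to between 22.8 and 34.2 RPKM. Markers of other organs, such as the liver gene Alb, summed to at most 4.11 RPKM. The part of cell makeup in the levels of Grik5 and Grik2 was not tested.

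The genes most like each member in their deviations over the 5 mice were sought among 10991 protein-coding genes, by the root mean square difference in log2 CPM. Grik5 was nearest to B4galt7, Med16 and Cck, the last encoding cholecystokinin, with B4galt7 at 0.01. Grik2 was nearest to Mgea5, Alg11 and Eif4g2, each at 0.02. Grik3 was nearest to Ppp2r5b, Mchr1 and Ticam1, Grik4 to Kctd8, Dscam and Pepd, Grid1 to Ap2a2, Smad3 and Lamc1, and Grik1 to Tom1, Mcph1 and Tm6sf1. Such likeness was common over 5 libraries. Within a difference of 0.1 there were 1229 genes for Grik3, 1194 for Grid1, 962 for Grik4, 518 for Grik2, 167 for Grik5 and 142 for Grik1. All 3 genes nearest to Grik5 had a GC content of 55.3% or more, and all 3 nearest to Grik2 one of 46.7% or less. Deviations in mouse 11 followed GC content across genes, so the search itself favoured such a match. Other members matched less closely. Grik1, at 47.9% GC, was nearest to Tom1 at 56.3%, and Grid1, at 49.9%, had all 3 nearest genes at 53.0% or more.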

How the data were processed

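For 47729 Ensembl genes in 5 mouse brain libraries, the authors deposited raw counts and RPKM values. The tools named are featureCounts 1.4.6-p4, STAR 2.4.1d and CASAVA 1.7, with the genome GRCm38, per the submitters' processing notes. The annotation release and strand setting are not given in the sources used here; reads of overlapping or antisense genes cannot be told apart. Per-sample columns left unused numbered 0. Among 12729 genes with at least 30 counts and 0.3 RPKM in every library, the deposited RPKM implied lengths within 1% for 0 genes with each library's own total, but for all 12729 with the totals taken in turn from gene to gene. RPKM was therefore recomputed from the counts, with the implied length. Exon overlaps were checked in M21: the genes overlapping exons of Grik4 and Grid1 held 0 counts. Symbols, coordinates, sequences and GC content came from GENCODE M21.

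The members, lists and trend removal were chosen with earlier results of these data known. Variation between mice was tested with edgeR 4.0.16 and limma 3.58.1 in R 4.3.3, fitting an intercept with TMM scaling. The genes tested were the 16318 whose mean count reached 10, with DESeq2 1.42.0 as an alternative. The procedure was also run on simulated data, and the outcome is not reported here. Log2 CPM used a prior count of 1. Ratios were tested by exact sign-flip permutation over mice. Named were all members, list genes with the highest and lowest mean (every gene in lists of up to 4), and for each member the 3 most alike protein-coding genes whose mean count reached 100; some genes the rule takes are not reported here. The labels number the 5 animals and give no further detail of replication, so the p-values reflect no more than the spread among these libraries. Intervals cover counting error only.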

Additional observations from a re-analysis of the deposited data

Results flagged for a closer look

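In 4 of 17 sets of 5 values examined, the highest mouse lay apart from the rest, its gap to the next mouse exceeding 0.71 of the whole range (Dixon's criterion, which chance meets in about 1 of 20 such sets). All 4 concern mouse 11 and share Grik5. Grik5 itself stood at 52.6 RPKM in mouse 11, a gap of 0.793 of the range. The high-affinity sum of Grik4 and Grik5 stood at 59.3 RPKM, a gap of 0.803. The kainate sum stood at 88.8 RPKM, a gap of 0.752. The log2 ratio of the high-affinity to the low-affinity sum stood at 1.004, a gap of 0.771. Grik2, lowest in mouse 11, fell just short with a gap of 0.707.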

How the results depend on the processing

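The number of genes called variable by edgeR was 0 with either other scaling, a mean count of at least 50, a non-robust fit, each mouse left out (0 to 0), and the trends removed. It was 230 of 28335 (0.812%) without the count filter and 2 of 16249 (0.0123%) with trends removed and mouse 11 left out. DESeq2 marked 49 outliers among 16318 genes (0.3%). Members called were 0 in each of these. TMM and the other scalings differed by at most 0.061 on the log2 scale. M21 exon lengths reversed Neto1 over Neto2, to -0.56, by the longer annotated exons, and moved the levels of Grik1 and Grik2 and 5 shares. The other 3 class ratios kept their direction under every alternative run, though trend removal holds mean ratios nearly fixed by construction. The number of pairs with one direction in all mice was 13, or 14 without mouse 11; under M21 exon lengths it was also 13, but Grik2 over Grik4 lost its single direction and Grik4 over Grik1 gained one. Trend removal was added after seeing the data and moved 4 of 30 deviations. No paired analysis was possible because there is 1 group. With 5 mice, exact tests cannot go below 0.063, or 0.125 with 4.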
